A study of Mus musculus with 17 samples.

Results

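Astrocytes of the dorsolateral geniculate nucleus (dLG), the thalamic relay of the visual pathway, were compared with astrocytes of the primary somatosensory cortex (S1). The comparison uses the 9 of the 17 RNA-seq libraries in the series whose labels name either region, 4 from the cortex (replicates a to d) and 5 from the dLG (replicates a to e), and all genes in them. All 9 come from untreated FVB mice of the genotype *Gfap::GFP* at postnatal day 7 (P7), and each holds the total RNA of cells from 4 pooled brains. In this line, the *Gfap* promoter drives green fluorescent protein (GFP), and dissociated cells were sorted by fluorescence, so that every cell type in which the transgene is active can enter the sort. The other 8 libraries, from 2 other thalamic nuclei, the ventral posteromedial nucleus (VPM) and the ventromedial geniculate nucleus (MGv), enter only where the dLG is set beside these nuclei. The comparison asks how far astrocytes of a thalamic nucleus and of the cortex differ in the genes they express while circuits are still maturing. Since a library is a pool of brains, the spread between libraries is that between pools, and nothing in the labels ties dLG and cortical libraries of the same letter to the same brains.

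Astrocytes clear glutamate and GABA from the space around synapses, take up potassium, pass metabolites to neurons, and secrete proteins that shape synapses. The cortex arises from the embryonic telencephalon and the dLG from the diencephalon, and transcription factors of the OTX, ZIC, IRX, and LIM homeodomain families help to lay out these territories in the embryo. Radial glial progenitors make first neurons and then astrocytes, and astrocytes can go on expressing patterning factors of the progenitors they came from.

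The deposited values are raw read counts per gene. The 9 libraries held between 19050424 and 50366363 counts, with cortex replicate a the deepest and all others at or below 21371571, and between 17749 and 23365 genes with at least 1 count. Levels are given as CPM (read counts scaled to the depth of each library, with TMM factors that correct for differences in composition), always in the order of the replicate letters, or as mean ± SD over 4 cortical and 5 dLG libraries. A count of 3, treated as the floor of detection, corresponds to between 0.0622 and 0.153 CPM, and this floor covers counting error only. The log2 fold change (log2FC) is dLG over cortex, and its standard error (SE) was taken as its absolute value over the root of the *F* statistic. Each adjusted p is from edgeR's quasi-likelihood test with Benjamini-Hochberg (BH) adjustment over all genes tested. A gene is called, and written of as higher or lower, where this p is under 0.1.

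A single library stood apart. In a principal components analysis of the 500 most variable genes, the cortical libraries lay between -49.7 and -38.1 on PC1 (64.2% of the variance) and 4 dLG libraries between 23.8 and 35.9. The exception, dLG replicate c, lay at 65.7 on PC1 and at 52.2 on PC2 (18.4%), on which all others lay between -22.5 and 11.4. This library also had the fewest genes detected (17749, against 21052 to 23365 in the others), and it is the only one of its number series in the library labels. Correlations of log2 CPM were 0.959 to 0.975 within the cortex, 0.891 to 0.968 within the dLG, and 0.844 to 0.944 between the groups. Without dLG replicate c, 1547 genes were higher in the dLG and 1166 in the cortex, against 1473 and 1047 with it.

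The label "astrocytes" was checked against marker genes. All 12 astrocyte markers were detected in each library, and their summed level was 13848 to 14655 CPM in the cortex against 8694 to 10439 CPM in the dLG. Much of this gap comes from *Slc1a3* alone, at 5146 ± 531 CPM in the cortex against 1503 ± 189 CPM in the dLG. *Gfap* itself, whose promoter drives the sorted reporter, was at 432, 451, 532 and 533 CPM in the cortex against 1334, 98.1, 78.6, 966 and 221 CPM in the dLG. The cortical libraries were close to each other and lay inside the range of the dLG libraries, which spread from 78.6 to 1334 CPM, and *Gfap* was not called (log2FC 0.15, SE 0.70, adjusted p = 0.925). Of the 12 markers, 4 were higher in the cortex and 3 in the dLG. *Gja1* and *Fgfr3* were not called, while *Aqp4* (water channel, log2FC 0.40, adjusted p = 0.0643) and *Aldh1l1* (folate metabolism, log2FC 0.41, adjusted p = 0.0754) were higher in the dLG. Without any single cortical library or without dLG replicate b both calls were lost, which left 1 marker higher in the dLG (adjusted p 0.108 to 0.186 for *Aqp4* and 0.139 to 0.212 for *Aldh1l1*). Other genes overlap 13.4% of the exons of *Aldh1l1*, and whether the counting used strand is not stated.

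Other cell types left transcripts in both groups. Markers of oligodendrocyte precursors summed to 7382 to 8978 CPM in the cortex, compared with 7191 to 9255 CPM in the dLG, and those of oligodendrocytes to 1882 to 2875 and 1500 to 3320 CPM. Neither sum separated the groups, and of 16 members tested *C1ql1* alone was called, higher in the cortex (adjusted p = 0.0992). That call was lost without any library except dLG replicate c (0.136 to 0.264), while 4 other members were called without dLG replicate d and 1 each without dLG replicate b or e. Pan-neuronal markers summed to 1334 to 1637 CPM in the cortex against 1633 to 2063 CPM in the dLG. Markers of cortical glutamatergic neurons stood at 263 to 318 CPM in the cortex against 34.9 to 63.2 CPM in the dLG, and those of thalamic glutamatergic neurons at 431 to 506 and 588 to 758 CPM. *Cd47*, which was not called and whose levels are given below, made up most of the thalamic sum in the cortex and a large part in the dLG. In bulk libraries, fewer cells of a type and less RNA per cell cannot be told apart, and the part of neurons in the results below was not tested.

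Further lists set the groups or single libraries apart. Markers of fibroblasts and meninges summed to 123 to 160 CPM in the cortex and to between 82.9 and 104 CPM in the dLG. Choroid plexus markers, of which *Otx2* is a member, summed to 1.81 to 3.5 and 65.2 to 105 CPM. *Otx2* alone, at 64.6 to 105 CPM in the dLG, made up nearly all of the dLG sums. Microglial markers summed to 45.3 to 55.6 CPM in the cortex and reached 169 and 116 CPM in dLG replicates a and d. Endothelial markers were at or below 16.4 CPM except in dLG replicate a (53.2 CPM), and genes of motile cilia were at 6.01, 33, 58.4 and 130 CPM in the cortex, compared with 0.807 to 8.15 CPM in the dLG. Among 12 immediate early and heat shock genes that respond to cell dissociation, the sum was 4609 CPM in cortex replicate a, 1030 to 1846 CPM in the other cortical libraries, and 3420 to 4528 CPM in the dLG, so that cortex replicate a lay above all dLG libraries on this measure.

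**Figure D1:**
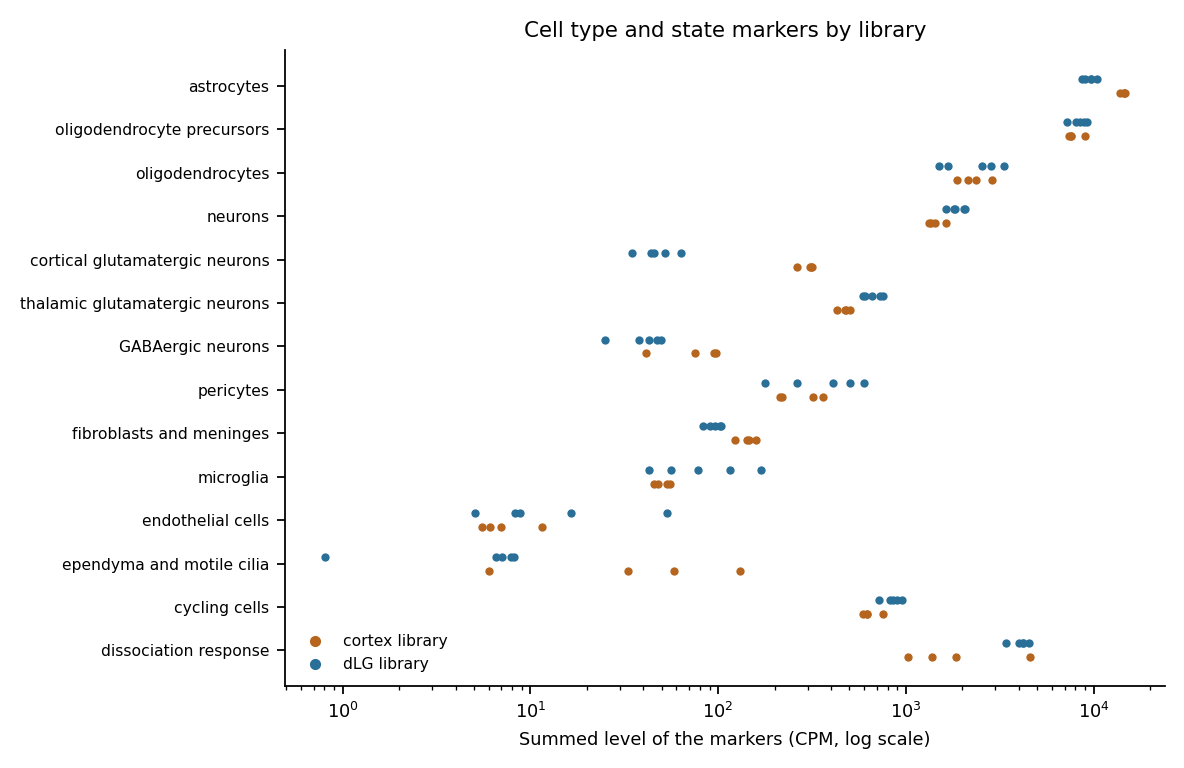
Summed level of each marker list (x axis, CPM on a log scale) in the 4 cortical (brown) and 5 dLG (blue) libraries, 1 point per library. The sums of astrocyte, cortical neuron, thalamic neuron and fibroblast markers separate the groups. Much of the gap in the astrocyte sum comes from *Slc1a3*, and *Cd47*, not called, is a large part of the thalamic neuron sum. The dissociation genes place cortex replicate a at 4609 CPM, above all dLG libraries.

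Of 16397 genes tested after removal of those with low counts, 1473 (8.98%) were higher in the dLG and 1047 (6.39%) in the cortex, 2520 (15.4%) together. A change of more than 1 on the log2 scale was found for 755 and 474 of them and of more than 2 for 278 and 249, while the median over all genes tested was 0.01. The dLG libraries all lay above the cortical ones for 920 of the 1473 genes and below them for 840 of the 1047, and over all genes tested for 1100 (6.71%) and 1162 (7.09%). Among calls, 1375 and 1001 fell on the 13792 protein-coding genes tested, and 89 and 41 on 1923 noncoding RNA genes. The number of calls moved with single libraries of both groups. Without cortex replicate a, b or d, 815, 697 and 849 genes were higher in the dLG, and without b or d, 607 and 645 in the cortex. Without dLG replicate d, 2061 genes were higher in the dLG and 1559 in the cortex.

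The 10 genes with the lowest p among those higher in the dLG with no overlap included *Otx2*, *Irx5*, *Irx1*, and *Zic4*, which encode transcription factors, the synaptic organizer *C1ql2*, the axon guidance gene *Ntng1*, the basement membrane gene *Nid1*, the angiotensin precursor *Agt*, and the granin *Vgf*. In the cortex they were the transcription factor genes *Neurod6* and *Lhx2*, *Hapln1* (a link protein of the perineuronal matrix), *Slco1c1* (a thyroid hormone carrier), *Nrgn* (a calmodulin binding protein of neurons), *Mpped1*, *St6galnac5* (a sialyltransferase), *Emid1*, *Entpd2* (an ecto-ATPase), and *Hgf* (hepatocyte growth factor). The largest fold changes from at least 5 CPM added *Foxb1*, *Lhx9*, and *Shox2* on the dLG side and *Neurod2*, *Fezf2*, and the noncoding *Dlx6os1* on the cortical side.

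**Figure D2:**
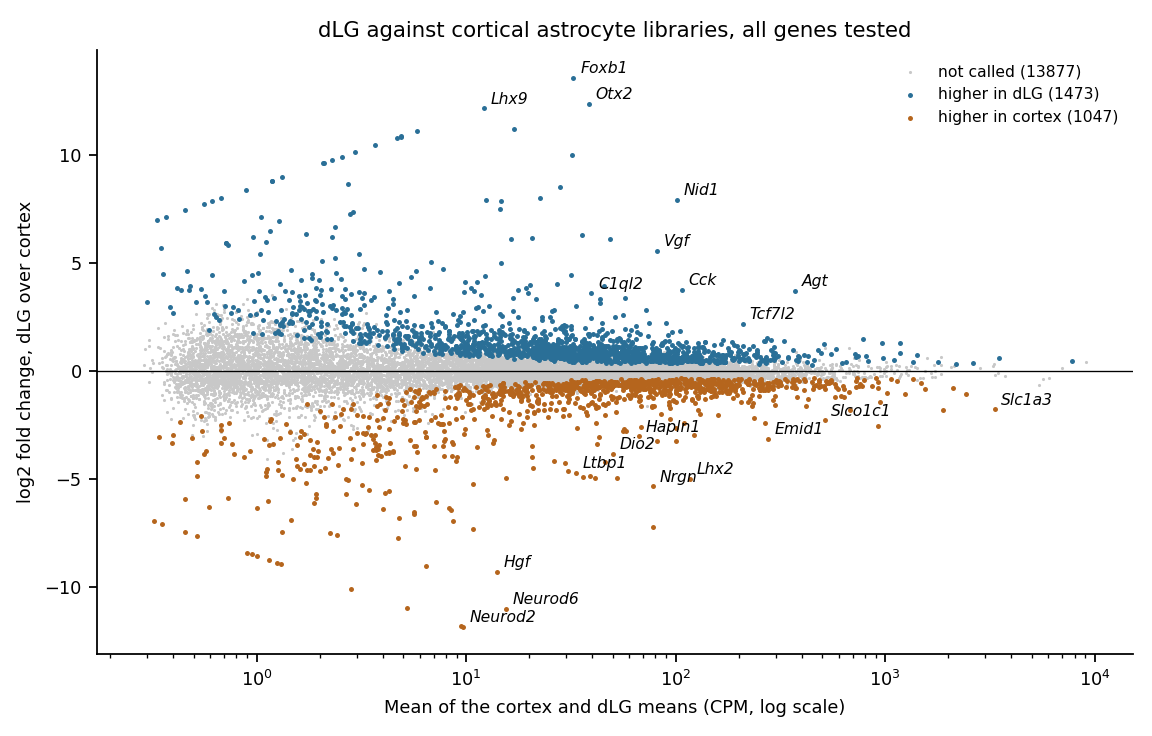
Each point is 1 of 16397 genes tested, by the mean of its group means (x axis, CPM on a log scale) and its log2FC, dLG over cortex (y axis). Blue points are the 1473 genes higher in the dLG, brown points the 1047 higher in the cortex, and the genes farthest from 0 are transcription factor genes such as *Foxb1* and *Otx2* above and *Neurod2* and *Neurod6* below.

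Transcription factors of the diencephalon stood higher in the dLG. Of 34 genes in a list of thalamic and diencephalic patterning factors, 32 are in the files and 27 could be tested, of which 19 were higher in the dLG and 2 in the cortex, where 8.98% and 6.39% of all genes were. The dLG libraries lay above all cortical ones for all 19, and for 920 of all 1473 genes higher in the dLG. The median log2FC of the list was 2.63. Among the members not called, *Tshz1* was at 75.8, 66.4, 71.1 and 83.2 CPM in the cortex against 68.9, 75.1, 78.9, 87.2 and 95.6 CPM in the dLG, and *Etv1* at 57.1 ± 5.96 and 60.6 ± 8.41 CPM. The 19 calls fell to 18 at the lowest with a library left out in turn, and the 2 cortical ones to 0 without cortex replicate a and to 1 without cortex replicate b or d or dLG replicate a or b. Members of this and the other lists were chosen with earlier results of these data known. A share of calls above that of all genes can thus be partly set by that choice. The list counts below are to be read beside the 8.98% and 6.39% of all genes. Counts near these shares are no result about a list.

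*Otx2*, a homeobox gene of the forebrain and midbrain, lies on chromosome 14 from 48657677 to 48673819. It had counts of 0, 0, 0 and 1 in the cortical libraries and levels of 66.6, 72.5, 105, 76.9 and 64.6 CPM in the dLG. Every dLG library was thus far above the floor and every cortical library at or under it, so that the dLG level was at least 524-fold that of the cortex (adjusted p = 2.8e-08). *Foxb1*, a forkhead gene of the developing diencephalon on chromosome 9 from 69757710 to 69760940, had no count in any cortical library and was at 47.1, 53.8, 98.1, 45.9 and 79.9 CPM in the dLG. This is at least 442-fold (adjusted p = 2.2e-06), and other genes overlap 14% of its exons. *Lhx9*, a LIM homeobox gene of thalamic progenitors and neurons, was likewise at 0 in the cortex and at 23.8, 32.8, 27.3, 19.9 and 17.7 CPM in the dLG, at least 165-fold higher (adjusted p = 1.9e-06). *Shox2*, a homeobox gene of thalamic neurons, and *Sox14*, from the list of inhibitory lineage factors, were also at 0 in all 4 cortical libraries. Their dLG levels were 6.72, 9.44, 18.1, 8.01 and 15.7 CPM and 1.38, 6.77, 11.3, 3.34 and 2.76 CPM, at least 78.9-fold (adjusted p = 3.6e-05) and 34.8-fold higher (adjusted p = 0.00114).

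The ZIC genes encode zinc finger factors of the dorsal neural tube, and *Zic1* and *Zic4* are neighbours in the genome. *Zic1*, on chromosome 9 from 91358058 to 91365810, was at 47.5, 58.5, 94.2, 34.1 and 85.1 CPM in the dLG, where replicates c and e were highest and d lowest, and had at most 3 counts in a cortical library, a difference of at least 435-fold (adjusted p = 1.3e-06). *Zic4*, beside it on chromosome 9 from 91362413 to 91389348, was at 31.8, 35.6, 51.4, 27 and 23.5 CPM and at least 231-fold higher (adjusted p = 1.8e-07).

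The Iroquois gene *Irx5* was at 0.207, 0, 0.196 and 0.146 CPM in the cortex against 50.4, 64, 40.6, 72.8 and 52.7 CPM in the dLG (log2FC 8.50, SE 0.41, adjusted p = 1.6e-07). *Irx1*, from the other Iroquois cluster, was detected at 0.913, 0.722, 0.833 and 1.07 CPM in every cortical library and at 21, 28.5, 28.4, 28.9 and 35.5 CPM in the dLG (log2FC 5.00, SE 0.25, adjusted p = 1.8e-07). Both genes thus separated the groups without a library in between, although for *Irx1* the cortical level was measurable.

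Other factors of this list were expressed in both regions and differed by degree. *Tcf7l2*, an effector of Wnt signals that marks the thalamus, was at 77.6, 74.9, 70.2 and 77.3 CPM in the cortex, compared with 287, 345, 436, 325 and 318 CPM in the dLG (log2FC 2.19, SE 0.14, adjusted p = 1.3e-06). Its partner of the same family, *Lef1*, was at 12.3, 11.7, 11.5 and 12.8 and 44.5, 58.1, 42.8, 58.8 and 50.6 CPM (log2FC 2.08, SE 0.16, adjusted p = 6.2e-06), with other genes over 13.7% of its exons. *Pou2f2* was at 4.02 ± 0.894 CPM in the cortex against 25.1 ± 3.48 CPM in the dLG (log2FC 2.63, adjusted p = 1.2e-05). The nuclear receptor gene *Rora* was at 85.2 ± 19.8 and 183 ± 22.6 CPM (log2FC 1.11, adjusted p = 0.00124). *Gbx2*, a factor of thalamic neurons, did not pass the filter: its levels were 2.76, 0.429, 0, 1.79 and 0.408 CPM in the dLG and 0.27, 0, 0 and 0 CPM in the cortex. Other genes overlap 43.5% of its exons.

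**Figure D3:**
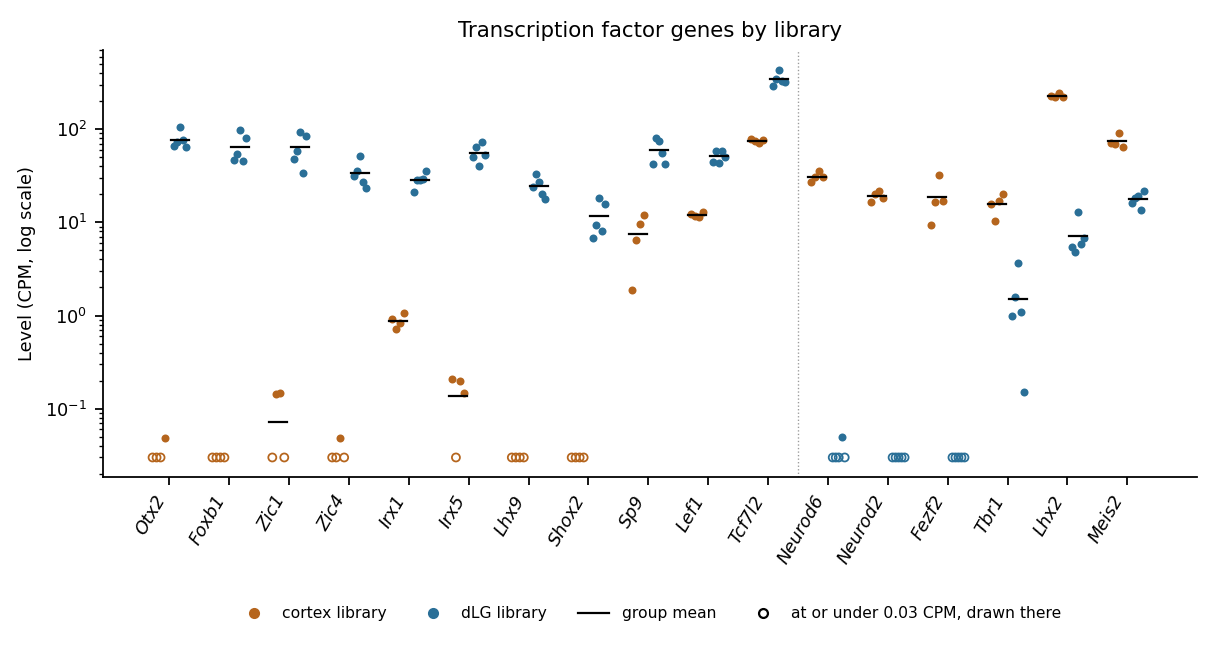
Level of 17 transcription factor genes (y axis, CPM on a log scale) in the 4 cortical (brown) and 5 dLG (blue) libraries, with bars at group means and open points for levels at or under 0.03 CPM. To the left of the dotted line the dLG is higher for each gene, and to the right the cortex, with *Tcf7l2*, *Lef1*, *Lhx2* and *Meis2* clearly detected in both regions.

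Promoter sequences are shown for 4 genes, 3 higher in the dLG (*Otx2*, *C1ql2*, *Agt*) and 1 in the cortex (*Neurod2*). These are genes whose windows held letters bound by the families of factors above. The windows of *Zic1*, *Zic4*, *Lhx9*, *Neurod6*, *Fezf2*, *Lhx2*, *Nid1*, and *Slc1a3* were searched as well, held no match, and are not shown. The sequences are the 250 bases before the annotated start, 5′ to 3′ on the strand of the gene, from RefSeq on GRCm38.p6. RefSeq windows were matched for 173 of the 241 genes named by the rules of the analysis, and *Otx2* has 4 windows, of which the one with most matches is shown. Capitals mark matches, on either strand, to TAATCC (OTX factors), CTTTGAT (TCF and LEF factors), CAGCAGG (ZIC factors), TAATTA (LIM and other homeodomain factors, the same on both strands), and CAGATG (an E box, bound by NEUROD and related factors). *Otx2* is at chr14:48665110-48665359 on the minus strand, *C1ql2* at chr1:120340332-120340581 on the plus strand, *Agt* at chr8:124569707-124569956 and *Neurod2* at chr11:98329646-98329895, both on the minus strand.
Otx2: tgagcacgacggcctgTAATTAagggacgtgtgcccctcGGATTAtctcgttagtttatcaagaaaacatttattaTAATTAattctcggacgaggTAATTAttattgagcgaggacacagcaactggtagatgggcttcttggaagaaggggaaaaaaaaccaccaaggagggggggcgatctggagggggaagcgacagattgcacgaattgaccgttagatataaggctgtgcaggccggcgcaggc
C1ql2: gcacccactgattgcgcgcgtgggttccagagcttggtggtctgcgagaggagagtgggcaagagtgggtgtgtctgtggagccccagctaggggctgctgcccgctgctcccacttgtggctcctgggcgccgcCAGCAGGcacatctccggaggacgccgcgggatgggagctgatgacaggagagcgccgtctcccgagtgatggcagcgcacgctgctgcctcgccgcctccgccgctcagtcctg
Agt: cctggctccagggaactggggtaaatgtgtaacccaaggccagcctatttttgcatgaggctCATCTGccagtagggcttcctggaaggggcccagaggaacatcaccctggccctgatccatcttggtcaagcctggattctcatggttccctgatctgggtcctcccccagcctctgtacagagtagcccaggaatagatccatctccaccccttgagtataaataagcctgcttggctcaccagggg
Neurod2: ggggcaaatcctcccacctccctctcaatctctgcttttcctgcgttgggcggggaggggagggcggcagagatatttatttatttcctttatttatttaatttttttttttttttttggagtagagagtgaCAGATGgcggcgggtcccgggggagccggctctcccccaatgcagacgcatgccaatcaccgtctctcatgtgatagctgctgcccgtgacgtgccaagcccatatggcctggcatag

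The *Otx2* window holds TAATTA 234, 174 and 154 bases before the start and the reverse complement of TAATCC 211 bases before it, *C1ql2* holds CAGCAGG at 115 bases, *Agt* the reverse complement of CAGATG at 188 bases, and *Neurod2* CAGATG at 118 bases. Such short words are common. TAATCC was found in 6.25% of all 32851 windows, CTTTGAT in 3.21%, CAGCAGG in 8.44%, TAATTA in 4.84%, and CAGATG in 14.4%. By gene, CAGCAGG was present for 12.3% of 1092 genes higher in the dLG, 11.7% of 794 higher in the cortex, and 10.3% of 11547 tested, and TAATCC for 5.77%, 7.43% and 6.18%. For CTTTGAT the shares were 2.84%, 3.15% and 2.75%, for TAATTA 2.93%, 3.9% and 3.04%, and for CAGATG 13.8%, 14.5% and 12%. These are counts of letters, not of bound sites.

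Telencephalic and cortical patterning factors showed the opposite pattern. Of 32 tested, 14 were higher in the cortex and 2 in the dLG, with a median log2FC of -0.60. The cortical libraries lay above all dLG ones for each of the 14, and for 840 of all 1047 genes higher in the cortex. With any single library left out, 14 or 15 members of the list were higher in the cortex. *Neurod6*, a proneural gene of cortical excitatory neurons on chromosome 6 from 55677822 to 55681263, was at 27.4, 30.4, 35.2 and 30.6 CPM in the cortex and had at most 1 count in a dLG library, at least 202-fold less (adjusted p = 4.5e-08). *Neurod2*, of the same family, was at 16.7, 20.3, 21.9 and 18.4 CPM in the cortex against 0 in all 5 dLG libraries, at least 126-fold less (adjusted p = 3.4e-06). *Fezf2*, a zinc finger gene of deep layer neurons and of cortical progenitors, was at 9.44, 16.6, 32.4 and 16.9 CPM and again at 0 throughout the dLG, at least 123-fold less (adjusted p = 5.2e-05). Replicate c held most *Fezf2* and replicate a least, but no cortical library approached the floor.

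Factors of neurons and of progenitors both contributed. *Tbr1*, which specifies projection neurons, was at 15.8 ± 4.05 CPM in the cortex against 1.51 ± 1.33 CPM in the dLG (log2FC -3.38, adjusted p = 0.00369). *Lhx2*, a LIM homeobox gene of cortical progenitors and of glia, was at 228, 219, 242 and 220 CPM in the cortex, compared with 5.39, 4.77, 13, 5.92 and 6.79 CPM in the dLG (log2FC -4.99, SE 0.27, adjusted p = 4.9e-07). Replicate c held the highest dLG level of *Lhx2*, still far below the cortex. *Meis2* was at 71.8, 69.1, 90.6 and 64.3 and 16.2, 18.4, 19.4, 13.6 and 21.7 CPM (log2FC -2.05, SE 0.17, adjusted p = 1.1e-05). Among members not called were *Nfib*, which drives astrocyte differentiation (402 ± 25.3 and 430 ± 28.7 CPM, adjusted p = 0.621), and *Id2* (1118 ± 403 and 1160 ± 83.5 CPM, adjusted p = 0.912).

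Since *Neurod6*, *Neurod2*, and *Tbr1* are also markers of cortical excitatory neurons, the rest of that marker list bears on these values. Of its 8 genes, 6 were higher in the cortex and none in the dLG. *Nrgn* was among them, at 143, 165, 159 and 141 CPM in the cortex against 2.96, 3.57, 3.66, 3.24 and 5.51 CPM in the dLG (log2FC -5.33, SE 0.19, adjusted p = 2.8e-08). *Cux2* (19.7 ± 3.14 and 25.5 ± 6.56 CPM) and *Camk2a* (9.53 ± 1.83 and 6.57 ± 1.97 CPM) were not called. Of 8 markers of thalamic relay neurons, 5 were higher in the dLG and 1, *Prkcd* (levels not reported here), in the cortex. With any single library left out, 5 were higher in the dLG and 1 or 2 in the cortex. *Slc17a6*, the vesicular glutamate transporter of thalamic neurons, was at 9.48, 15.9, 6.22 and 9.05 CPM in the cortex against 82.8, 136, 99.6, 111 and 91 CPM in the dLG (log2FC 3.36, SE 0.27, adjusted p = 8.3e-06). *Calb2* (calretinin) was at 7.82, 6.97, 7.93 and 8.95 and 84.9, 69.7, 121, 57.4 and 60.9 CPM (log2FC 3.31, SE 0.24, adjusted p = 3.7e-06). *Cd47* (379 ± 27.7 and 390 ± 42 CPM) and *Ramp3* (4.08 ± 1.26 and 1.16 ± 1.75 CPM) were not called. How much of any of these transcripts came from neurons in the sorts was not tested.

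Of 10 pan-neuronal markers, 4 were higher in the dLG and 1 in the cortex, with a median log2FC of 0.35. The counts were 3 to 5 for the dLG and 0 or 1 for the cortex with any single library left out. The neurofilament genes *Nefm* and *Nefl*, which overlap each other by 19.2% and 32.8% of their exons, were both higher in the dLG. The log2FC was 2.58 for *Nefm* (adjusted p = 4.7e-06), 2.20 for *Nefl* (adjusted p = 1.1e-05), and, for the vesicle gene *Syt1*, 1.09 (adjusted p = 0.00423). *Map2* (291 ± 20.9 and 326 ± 44.7 CPM) and *Stmn2* (287 ± 47.2 and 320 ± 43.8 CPM) were not called. *Rbfox3*, a splicing factor of mature neurons, was lower in the dLG, with 31.9, 45, 34.5 and 38.6 CPM in the cortex, compared with 13.4, 25.4, 35.3, 13.2 and 17.9 CPM in the dLG (log2FC -0.83, adjusted p = 0.0877). The groups overlap in dLG replicate c, and the call was lost without any library other than this one (0.111 to 0.236), whereas without dLG replicate c the adjusted p was 0.0103.

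Factors of the inhibitory lineage were divided between the regions. Of 13 tested, 4 were higher in the dLG and 4 in the cortex. *Sp9*, a zinc finger gene, was at 1.89, 6.45, 9.65 and 11.9 CPM in the cortex against 42.5, 81.3, 75.2, 55.5 and 42.2 CPM in the dLG (log2FC 3.01, SE 0.45, adjusted p = 0.0013), and *Sox14* was given above. On the cortical side stood the homeobox genes *Dlx1* and *Dlx2* of telencephalic interneurons. *Dlx2* was at 4.52, 20.9, 27.1 and 33 CPM in the cortex against 0.143, 0, 0, 0.398 and 0.102 CPM in the dLG (log2FC -7.33, adjusted p = 1.1e-04). *Dlx1* was at 17.2 ± 7.72 and 0.135 ± 0.209 CPM (log2FC -6.93, adjusted p = 2.8e-04). The antisense transcript *Dlx6os1* was at 2.47, 5.34, 6.76 and 8.12 CPM in the cortex, compared with 0 in the dLG, at least 37-fold less there (adjusted p = 3.7e-04). Cortex replicate a was the lowest cortical library for *Sp9*, *Dlx1*, *Dlx2*, and *Dlx6os1* alike. *Gsx1* (10 ± 3.58 and 12.9 ± 6.2 CPM) and *Gsx2* (12.3 ± 0.52 and 9.58 ± 2.72 CPM) were not called. Of 8 GABAergic markers, 3 were higher in the cortex, all of them *Dlx* transcripts. *Gad1*, which makes GABA, was at 17.6 ± 3.54 and 28.5 ± 7.98 CPM and higher in the dLG (adjusted p = 0.0925), a call lost without any cortical library or dLG replicate a, b or d (0.115 to 0.21).

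Factors that set astroglial fate were called in both directions. Of 24 tested, 6 were higher in the dLG and 3 in the cortex, and the oligodendroglial and glial genes *Olig1* (2997 ± 197 and 3524 ± 593 CPM) and *Olig2* (1036 ± 65 and 1089 ± 222 CPM) were not called. Without cortex replicate b, 3 were higher in the dLG. *Hopx*, a homeodomain gene of radial glia and astrocytes, was at 23.3, 28.1, 39.1 and 26.6 CPM in the cortex against 85.1, 49, 64.8, 82.2 and 95.5 CPM in the dLG (log2FC 1.37, adjusted p = 0.00203), with other genes over 27.2% of its exons. *Sox2*, a factor of neural progenitors and glia, was at 307 ± 32.3 and 440 ± 51.7 CPM (log2FC 0.52, adjusted p = 0.0246). *Hey1*, a Notch target, was at 279, 229, 255 and 222 and 144, 123, 154, 149 and 116 CPM (log2FC -0.85, adjusted p = 0.0013). *Sox8* had the same log2FC (-0.85, adjusted p = 0.00197, 10.6% of exons overlapped), and both were higher in the cortex.

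Genes of glutamate uptake and the glutamine cycle stood higher in the cortex. Of 16 tested, 7 were higher in the cortex and 1 in the dLG, with a median log2FC of -0.29, and 6 or 7 members were higher in the cortex with any single library left out. *Slc1a3*, the glutamate transporter GLAST, lies on chromosome 15 from 8634124 to 8710764 and was at 5037, 5436, 4450 and 5661 CPM in the cortex against 1197, 1605, 1620, 1650 and 1444 CPM in the dLG. The lowest cortical library lay far above the highest dLG library (log2FC -1.78, SE 0.13, adjusted p = 3.1e-06). *Slc1a2*, the transporter GLT-1, was at 925, 775, 1070 and 626 and 232, 404, 474, 219 and 558 CPM, also without overlap but with a wider spread (log2FC -1.17, SE 0.27, adjusted p = 0.0194). *Glul*, glutamine synthetase, was at 339, 287, 336 and 325 CPM in the cortex, compared with 80.4, 108, 173, 67.9 and 171 CPM in the dLG (log2FC -1.42, SE 0.26, adjusted p = 0.00449). *Slc38a3*, which exports glutamine, was at 806 ± 78.3 and 350 ± 104 CPM (log2FC -1.20, SE 0.19, adjusted p = 0.00201). *Slc7a10*, a carrier of serine and other small amino acids, had a log2FC of -0.77 (adjusted p = 0.0068, 17.9% of exons overlapped). The mitochondrial genes *Glud1* (618 ± 82.5 and 506 ± 77.4 CPM) and *Slc25a18* (279 ± 53.7 and 310 ± 52.7 CPM) were not called.

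GABA uptake and breakdown went the other way for part of its genes. Of 14 tested, 5 were higher in the dLG and 1 in the cortex. *Slc6a11*, the GABA transporter GAT-3 of astrocytes, was at 409, 458, 436 and 360 CPM in the cortex against 519, 1086, 1994, 572 and 1591 CPM in the dLG (log2FC 1.47, SE 0.36, adjusted p = 0.0237). All dLG libraries were above the cortex, but replicates a and d only just and replicate c by most. *Abat*, which breaks down GABA, was at 213 ± 27.9 and 381 ± 127 CPM (log2FC 0.84, SE 0.21, adjusted p = 0.0297, and 0.103 without cortex replicate b). *Maob*, monoamine oxidase B, was lower in the dLG, at 10.2 ± 3.69 against 31.2 ± 5.13 CPM (log2FC -1.62, adjusted p = 0.0021). Without cortex replicate a, b or d or dLG replicate b, 2, 1, 2 and 3 genes of the list were higher in the dLG, and without cortex replicate d or dLG replicate c, 2 were higher in the cortex.

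In a list of connexins, potassium channels, pump subunits, and water channels, 6 of 17 genes tested were higher in the cortex and 2 in the dLG. *Kcnk1*, the leak channel TWIK-1, was at 199, 215, 217 and 204 CPM in the cortex against 50, 48, 69.7, 52.2 and 46.3 CPM in the dLG (log2FC -1.97, SE 0.14, adjusted p = 2.5e-06). Its relative *Kcnk2* (TREK-1) was at 67.3 ± 9.21 and 30.5 ± 6.42 CPM (log2FC -1.14, adjusted p = 0.00136, 12.2% of exons overlapped). *Atp1b1*, a subunit of the sodium pump, had a log2FC of -1.56 (adjusted p = 5.9e-05, 18.7% overlapped), while the subunit *Atp1b2* (885 ± 24.2 and 724 ± 140 CPM) was not called. Of the connexins, *Gjb6* (connexin 30) was at 143, 172, 145 and 132 and 64.5, 78.7, 85.3, 80.6 and 74.4 CPM (log2FC -0.95, SE 0.13, adjusted p = 5.3e-04) and *Gja1* (connexin 43) at 1633 ± 148 and 1303 ± 228 CPM (adjusted p = 0.184). The 2 genes higher in the dLG fell to 0 without cortex replicate b or d and to 1 without cortex replicate a or c or dLG replicate b.

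Receptors through which astrocytes sense transmitters and peptides were higher in the cortex for 9 of 25 tested and in the dLG for 1, with a median log2FC of -0.55. *S1pr1*, a receptor of sphingosine-1-phosphate, was at 969, 1056, 1066 and 1135 CPM in the cortex, compared with 273, 336, 340, 370 and 176 CPM in the dLG (log2FC -1.82, SE 0.19, adjusted p = 6.5e-05). *Ntsr2*, a neurotensin receptor of astrocytes, was at 300 ± 23.9 and 111 ± 30.8 CPM (log2FC -1.43, adjusted p = 5.5e-04). *Cnr1*, the cannabinoid receptor, was at 45.3 ± 9.28 and 13.2 ± 4.5 CPM (log2FC -1.78, adjusted p = 0.0013). The exception was *Adrb1*, the beta-1 adrenergic receptor, at 18.3, 17.5, 20.6 and 23 CPM in the cortex against 38.5, 50.8, 39.4, 36.5 and 35.9 CPM in the dLG (log2FC 1.02, SE 0.17, adjusted p = 0.00228), joined by others without cortex replicate d or dLG replicate a or c (2 genes) and without dLG replicate d (3 genes). The adenosine receptor genes *Adora1* (133 ± 22.4 and 175 ± 24.8 CPM, 20.1% of exons overlapped) and *Adora2b* (221 ± 15.1 and 184 ± 33.1 CPM) were not called.

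Genes for a carrier and an activating enzyme of thyroid hormone stood higher in the cortex. *Slco1c1*, which carries thyroxine into astrocytes, lies on chromosome 6 from 141524368 to 141570177 and was at 843, 881, 838 and 853 CPM in the cortex against 147, 211, 193, 172 and 148 CPM in the dLG (log2FC -2.29, SE 0.13, adjusted p = 6.7e-07). *Dio2*, the deiodinase that activates thyroxine, was at 113, 79.4, 108 and 74 and 4.43, 4.58, 10.1, 7.72 and 5.97 CPM (log2FC -3.83, SE 0.26, adjusted p = 2.5e-06). Both were called with every library left out in turn. *Crym*, a thyroid hormone binding protein, was at 3.63, 8.08, 21.2 and 11.6 CPM in the cortex, where replicate c was highest, and at 0.191, 0.286, 0, 0.0996 and 0 CPM in the dLG (log2FC -6.51, adjusted p = 3.4e-04). In contrast, the receptor gene *Thra* (287 ± 14.4 and 300 ± 12.5 CPM) was not called. The retinoid receptor gene *Rxrg* was higher in the dLG, at 35.1, 32, 38.7 and 35.3 CPM in the cortex, compared with 96.3, 81, 88.6, 88 and 89.6 CPM in the dLG (log2FC 1.33, SE 0.12, adjusted p = 2.3e-05). In the list of retinoic acid and thyroid hormone genes, 4 of 22 tested were higher in the cortex and 2 in the dLG. The dLG count, close to the 8.98% of all genes tested, was 1 without dLG replicate a, b, d or e. *Crabp2* did not pass the filter (0.334, 0.0477, 0, 0.398 and 0 CPM in the dLG).

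In lipid and sugar metabolism, more genes were higher in the cortex than in the dLG. Of 32 genes of cholesterol and lipid metabolism tested, 10 were higher in the cortex and 2 in the dLG, with a median log2FC of -0.28. *Msmo1*, an enzyme of cholesterol synthesis, was at 1278, 1565, 1367 and 1243 CPM in the cortex against 653, 722, 741, 738 and 492 CPM in the dLG (log2FC -1.03, SE 0.14, adjusted p = 6.8e-04). *Acsl6*, which activates fatty acids, was at 409 ± 23.4 and 185 ± 26.7 CPM (log2FC -1.14, adjusted p = 1.1e-04). *Lpl*, lipoprotein lipase, was at 45 ± 10.2 and 16.5 ± 2.33 CPM (log2FC -1.45, adjusted p = 4.9e-04). *Fabp7*, the brain fatty acid binding protein, was not called (6660 ± 1774 and 7349 ± 1065 CPM). The 10 cortical calls fell to 6 without cortex replicate b, and the 2 dLG calls to 0 without cortex replicate a, b or d or dLG replicate b, c or e and rose to 4 without dLG replicate d. Of 29 genes of glycolysis, glycogen, and lactate transport, 6 were higher in the cortex (3 without cortex replicate a) and 2 in the dLG (0 without cortex replicate a, b or c or dLG replicate a or b, and 1 without cortex replicate d or dLG replicate e). Over all genes tested, 6.39% were higher in the cortex and 8.98% in the dLG. *Aldoc*, the aldolase of astrocytes, was at 1852, 1503, 1858 and 1556 CPM in the cortex against 741, 870, 945, 635 and 824 CPM in the dLG (log2FC -1.08, SE 0.14, adjusted p = 3.6e-04). *Ppp1r3g*, which targets a phosphatase to glycogen, was at 53.2 ± 4.35 and 16.9 ± 3.08 CPM (log2FC -1.65, adjusted p = 5.2e-05). *Pygb*, glycogen phosphorylase, was not called (373 ± 72.5 and 417 ± 74.4 CPM).

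**Figure D4:**
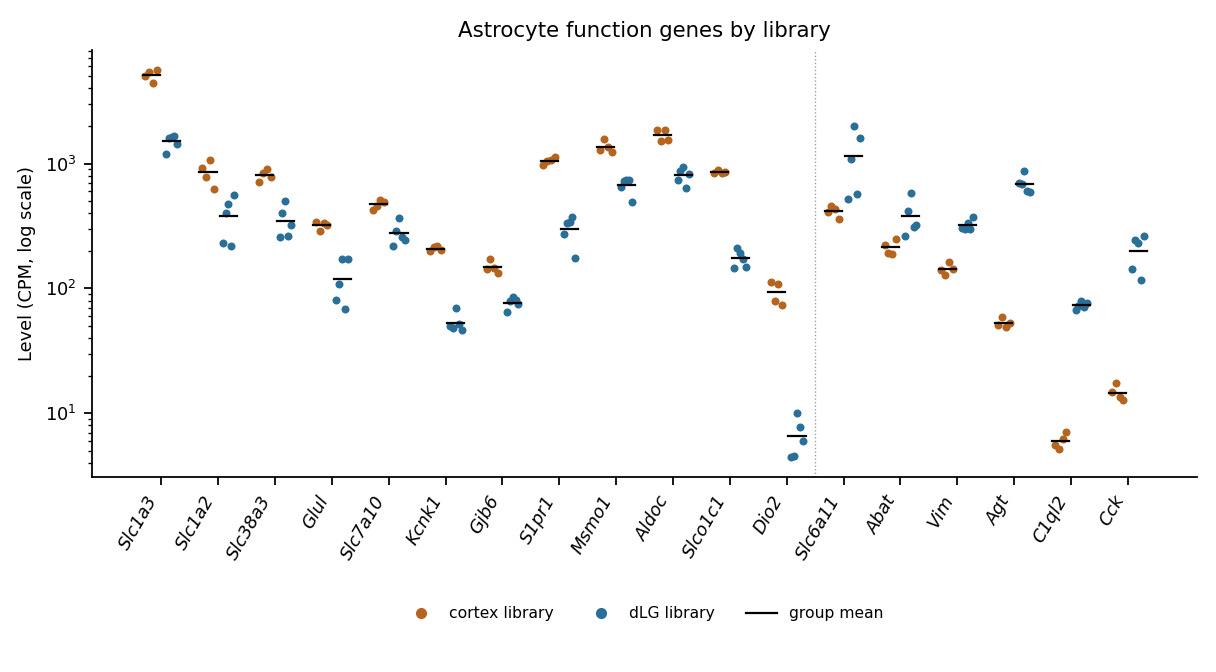
Level of 18 genes of astrocyte function (y axis, CPM on a log scale) in the 4 cortical (brown) and 5 dLG (blue) libraries, with bars at group means. The cortex is higher for the 12 genes to the left of the dotted line, by most for *Dio2*, and the dLG for the 6 to its right, by most for *Agt*, *Cck* and *C1ql2*.

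Intermediate filament and reactive genes did not move as a block. Of 17 tested, 5 were higher in the dLG and 2 in the cortex. *Vim* (vimentin) was at 141, 129, 163 and 142 CPM in the cortex, compared with 307, 300, 337, 299 and 374 CPM in the dLG (log2FC 1.17, SE 0.12, adjusted p = 6.5e-05). *Serpina3n*, a secreted protease inhibitor, was at 96.2 ± 9.06 and 178 ± 32.8 CPM (log2FC 0.88, adjusted p = 0.00318). *Lgals1* (galectin-1) was at 8.61 ± 3.06 and 26.2 ± 8.47 CPM (adjusted p = 0.00793). *Cd44*, a hyaluronan receptor, was higher in the cortex, at 48.5 ± 5.5 against 17.4 ± 5.66 CPM (log2FC -1.48, adjusted p = 0.00152). *Gfap* and *Tnc* (tenascin-C, 300 ± 69.2 and 222 ± 32.4 CPM) were not called. The dLG count was 3 without cortex replicate a or c or dLG replicate b, and the cortical count 1 without cortex replicate b, c or d or dLG replicate b.

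Secreted regulators of synapses differed in both directions, with 7 of 30 tested higher in the dLG and 10 in the cortex. *C1ql2*, a C1q-like protein that organizes synapses, lies on chromosome 1 from 120340582 to 120343174 and was at 5.6, 5.19, 6.27 and 7.15 CPM in the cortex against 67.5, 72.8, 78.6, 70.6 and 76.1 CPM in the dLG, where the 5 libraries differed by little (log2FC 3.60, SE 0.16, adjusted p = 5.9e-08). On the cortical side, *Hapln1* was at 114, 122, 113 and 126 CPM against 15.5, 13.2, 9.5, 15.8 and 18.5 CPM in the dLG (log2FC -3.03, SE 0.18, adjusted p = 9.6e-07). *Chrdl1*, a BMP antagonist through which astrocytes mature AMPA receptors at synapses, was at 223, 224, 187 and 233 and 15.7, 24.5, 48.7, 31.9 and 16.5 CPM (log2FC -2.98, SE 0.30, adjusted p = 5.2e-05). *Sparcl1*, or hevin, was not called, at 6656 ± 226 and 5384 ± 808 CPM (adjusted p = 0.153), although its libraries do not overlap between the groups, and neither was the proteoglycan gene *Bcan* (4067 ± 449 and 3413 ± 420 CPM). The cortical count was 6, 5 and 6 without cortex replicate a, b and c, and the dLG count 11 without dLG replicate d.

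Of 26 genes of phagocytosis and adhesion in synapse refinement, 9 were higher in the dLG and 3 in the cortex. The teneurins *Tenm2* and *Tenm3*, adhesion receptors of visual wiring, were both higher in the dLG. *Tenm2* was at 3.96, 7.79, 10.6 and 4.04 CPM in the cortex against 36.7, 44.9, 68, 19.4 and 53.7 CPM in the dLG (log2FC 2.76, SE 0.41, adjusted p = 0.00112). *Tenm3* was at 15.9, 18, 20.9 and 21.6 and 38.1, 40, 80.3, 23.6 and 45.2 CPM (log2FC 1.25, SE 0.30, adjusted p = 0.0207). In both, dLG replicate c was highest and d lowest. *Lrrtm1*, a synaptic adhesion gene, had a log2FC of 0.73 (adjusted p = 0.00742). *Mfge8*, a bridge to dying cells in phagocytosis, was higher in the cortex, at 1949, 2031, 2032 and 1927 against 890, 1246, 1604, 939 and 878 CPM (log2FC -0.84, SE 0.18, adjusted p = 0.0114). *Nrcam* (395 ± 39 and 347 ± 64.2 CPM) was not called. Without cortex replicate b or d the counts were 5 for the dLG and 1 for the cortex.

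The extracellular matrix list had 7 of 39 genes higher in the dLG and 6 in the cortex, and the dLG count was 4 without cortex replicate b and 11 without dLG replicate d. *Nid1* (nidogen-1), on chromosome 13 from 13437551 to 13512269, was at 0.436, 1.01, 0.931 and 1.12 CPM in the cortex, compared with 140, 261, 272, 140 and 197 CPM in the dLG. It was at or below 1.12 CPM in every cortical library and above 100 CPM in every dLG library (log2FC 7.93, SE 0.37, adjusted p = 1.2e-07). *Reln*, reelin, was at 2.3, 3.56, 3.43 and 2.24 and 32, 27.6, 36, 19.9 and 36.5 CPM (log2FC 3.40, SE 0.27, adjusted p = 6.9e-06). *Has2*, a hyaluronan synthase, was lower in the dLG, at 10.5 ± 1.83 against 26.2 ± 5.3 CPM (log2FC -1.32, adjusted p = 0.00169). *Ncan*, neurocan, was not called (1668 ± 114 and 2040 ± 404 CPM). Outside any list, *Emid1*, which encodes a secreted protein with a collagen domain, was at 508, 448, 498 and 517 CPM in the cortex against 45.5, 59.5, 47.9, 58.1 and 69.6 CPM in the dLG (log2FC -3.13, SE 0.14, adjusted p = 1.1e-07).

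Of 23 neuropeptide and granin genes tested, 6 were higher in the dLG and 5 in the cortex (3 without cortex replicate b). *Agt*, angiotensinogen, which astrocytes of many brain regions secrete, lies on chromosome 8 from 124556534 to 124569706 and was at 51.3, 58.8, 48.9 and 52.4 CPM in the cortex against 703, 687, 866, 608 and 597 CPM in the dLG (log2FC 3.71, SE 0.15, adjusted p = 4.5e-08). *Vgf* was at 1.87, 3.7, 3.53 and 4.62 CPM in the cortex, compared with 118, 195, 214, 117 and 157 CPM in the dLG (log2FC 5.57, SE 0.32, adjusted p = 7.0e-07). *Cck*, cholecystokinin, was at 14.9, 17.4, 13.4 and 12.8 and 142, 246, 230, 117 and 262 CPM (log2FC 3.77, SE 0.27, adjusted p = 2.9e-06). *Vgf* and *Cck* shared an order within the dLG, with replicates a and d low and b, c and e higher. *Scg2*, secretogranin II, was at 17.7 ± 5.1 and 127 ± 33 CPM (log2FC 2.84, adjusted p = 2.5e-05), and *Cpe* (6363 ± 604 and 4914 ± 925 CPM), which processes peptides, was not called.

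In the Wnt pathway, 11 of 39 genes tested were higher in the dLG and 9 in the cortex. The ligand gene *Wnt3* was at 2.03, 4.14, 1.76 and 3.11 CPM in the cortex against 52.4, 58.1, 71.4, 47.1 and 72.3 CPM in the dLG (log2FC 4.46, SE 0.29, adjusted p = 1.5e-06). *Wnt5a* was at 13.6, 15.2, 17.7 and 17.2 and 68.6, 83.5, 69.6, 70.6 and 71.8 CPM (log2FC 2.20, SE 0.15, adjusted p = 1.6e-06). Secreted antagonists were among the genes higher in the cortex, and other inhibitor genes of the list were among those higher in the dLG. *Sfrp1*, which binds Wnt proteins, was at 127, 162, 128 and 169 CPM in the cortex against 15.4, 12.1, 16, 22.8 and 12.3 CPM in the dLG (log2FC -3.22, SE 0.20, adjusted p = 1.3e-06). *Dkk3*, of the Dickkopf family, was at 369, 390, 404 and 387 and 75.2, 103, 78.5, 107 and 65 CPM (log2FC -2.18, SE 0.16, adjusted p = 3.1e-06). *Wnt7b* (139 ± 27 and 143 ± 15.6 CPM) and *Ctnnb1* (beta-catenin, 442 ± 59.1 and 397 ± 125 CPM, 15.1% of exons overlapped) were not called. Without cortex replicate b the counts were 7 and 5.

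In the Notch pathway, 6 of 25 genes tested were higher in the cortex and 4 in the dLG. Beside *Hey1*, the cortical genes included the effector *Heyl* (34.2 ± 4.92 and 9.64 ± 4.49 CPM, log2FC -1.82, adjusted p = 0.00466), the target and feedback gene *Nrarp* (111 ± 9.43 and 56.4 ± 16.7 CPM, log2FC -0.98, adjusted p = 0.0104, 79.4% of exons overlapped), and the inhibitor *Numb* (58.6 ± 6.74 and 21.4 ± 7.93 CPM, log2FC -1.45, adjusted p = 0.00367). *Hes1*, another target, was at 250, 87.6, 139 and 96.9 CPM in the cortex, compared with 287, 233, 200, 231 and 247 CPM in the dLG, and was not called (log2FC 0.74, adjusted p = 0.11). Cortex replicate a lay far above the other cortical libraries, and without it *Hes1* was higher in the dLG (adjusted p = 0.00421), as it was without dLG replicate c or d. The dLG count was 1 without cortex replicate d, 2 without cortex replicate a, b or c or dLG replicate b or e, and 7 without dLG replicate d.

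The Sonic hedgehog list had 4 of 16 genes higher in the cortex and 0 in the dLG, the latter 1 without dLG replicate d. DESeq2 likewise called 0 in the dLG, and 1 member was higher there at an unadjusted p under 0.05 of the edgeR test. *Scube1*, which helps release hedgehog proteins, was at 18.3, 19.9, 17.8 and 26.8 CPM in the cortex against 3.19, 2.19, 1.23, 2.44 and 0.051 CPM in the dLG (log2FC -3.50, SE 0.60, adjusted p = 0.0032). The coreceptor gene *Gas1* was at 120 ± 14.1 and 66.8 ± 17.9 CPM (log2FC -0.84, adjusted p = 0.0181, 19.9% of exons overlapped). The call of *Boc* (adjusted p = 0.0663) was lost without any cortical library or dLG replicate a (0.11 to 0.171), and that of *Smo* (adjusted p = 0.0992) without any library but dLG replicate d (0.104 to 0.241), so that the count was 2 without any cortical library or dLG replicate a. *Ptch1*, the receptor and a target of the pathway, was not called (61.8 ± 18 and 107 ± 62.5 CPM).

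Of 27 genes of the FGF pathway, 7 were higher in the dLG and 2 in the cortex. The ligand gene *Fgf9* was at 1.66, 1.73, 2.06 and 2.04 CPM in the cortex against 7.01, 6.63, 7.98, 7.47 and 8.06 CPM in the dLG (log2FC 1.99, SE 0.30, adjusted p = 0.00121). *Fgfbp3*, a carrier of FGF ligands, was at 266, 253, 280 and 220 and 69.4, 57.1, 73, 61.3 and 47.8 CPM (log2FC -2.05, SE 0.14, adjusted p = 2.9e-06). *Fgfrl1*, a receptor without a kinase domain, had a log2FC of -0.75 (adjusted p = 0.00208), and *Fgfr3* was not called (607 ± 50.1 and 496 ± 125 CPM, 13.9% of exons overlapped). The dLG count was 3 without cortex replicate b and 4 without cortex replicate c or d or dLG replicate b. In the BMP and TGF-beta list, 5 of 40 were higher in the dLG (2, 1, 3 and 3 without cortex replicate a, b, c and d, and 3 without dLG replicate b) and 7 in the cortex. Over all genes tested, 8.98% were higher in the dLG and 6.39% in the cortex. *Ltbp1*, which stores TGF-beta in the matrix, was at 58.4, 56.5, 60.9 and 81.9 CPM in the cortex, compared with 3.48, 1.91, 0.855, 2.14 and 3.93 CPM in the dLG (log2FC -4.71, SE 0.36, adjusted p = 5.1e-06). *Bmp7* had a log2FC of -0.67 (adjusted p = 0.00617) and *Gdf11* one of 1.77 (adjusted p = 0.00533), and the target *Id4* was not called (303 ± 28.7 and 255 ± 34.6 CPM).

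**Figure D5:**
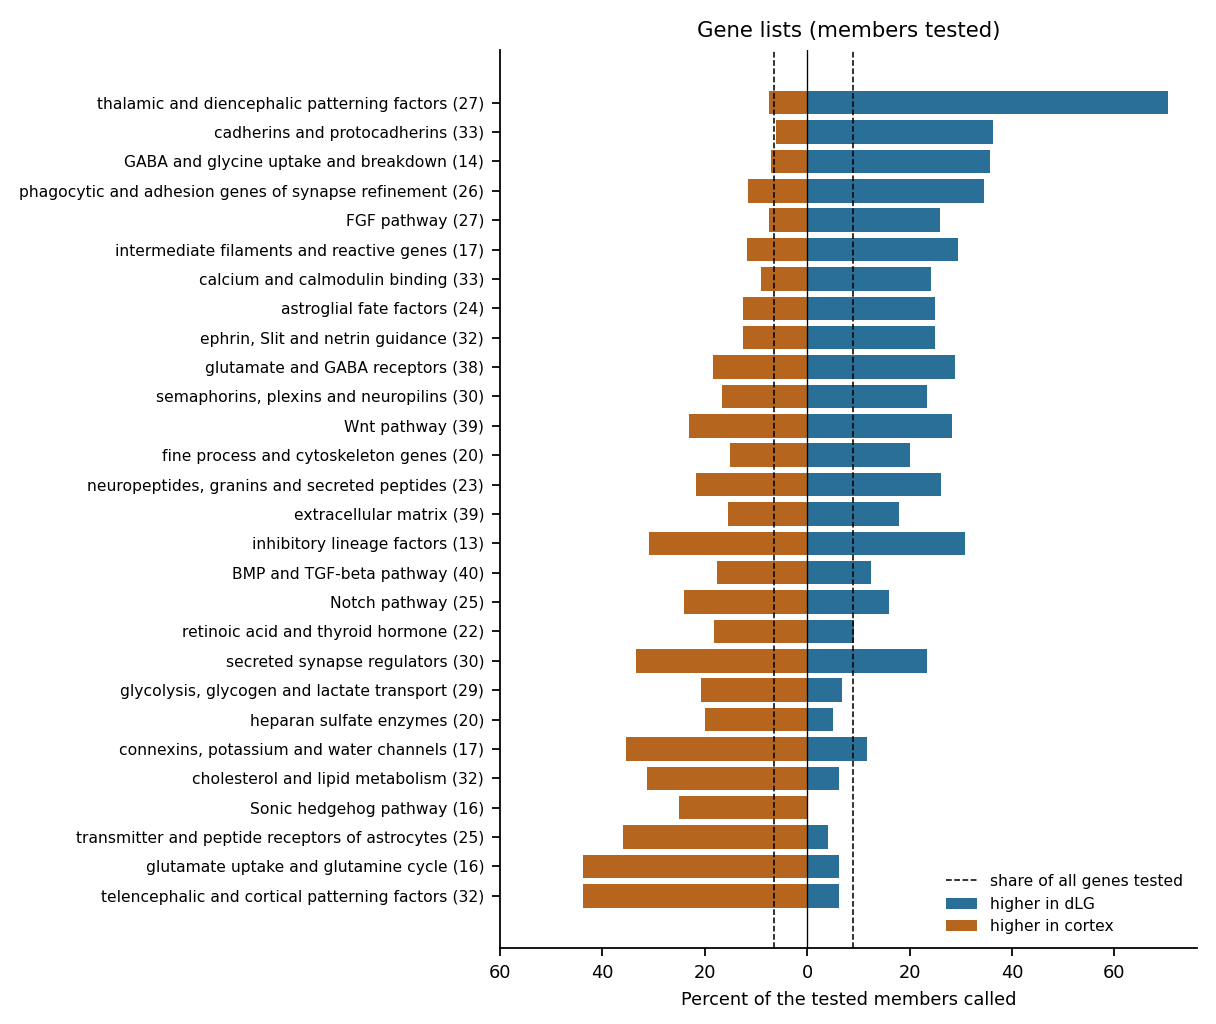
Share of the tested members of each of 28 gene lists (number tested in parentheses) called higher in the dLG (blue, to the right) or in the cortex (brown, to the left), with dashed lines at the shares over all genes tested, 8.98% and 6.39%. Thalamic and diencephalic patterning factors have the highest share in the dLG (19 of 27), and telencephalic patterning factors (14 of 32) and glutamate uptake genes (7 of 16) the highest in the cortex. List members were chosen with earlier results of these data known, which can raise these shares.

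Guidance genes were called in both directions. In the ephrin, Slit, and netrin list 8 of 32 tested were higher in the dLG (5 without cortex replicate b) and 4 in the cortex (2 without cortex replicate d). *Ntng1*, netrin-G1, which thalamic axons carry, was at 9.46, 8.61, 8.13 and 9.05 CPM in the cortex against 69.6, 75.2, 104, 75.1 and 66.9 CPM in the dLG (log2FC 3.15, SE 0.18, adjusted p = 4.9e-07). The Slit receptor gene *Robo1* was at 29.2, 25.2, 34.1 and 27.1 and 72.7, 110, 111, 63.2 and 99.3 CPM (log2FC 1.66, SE 0.20, adjusted p = 2.1e-04). *Ephb2* had a log2FC of 1.67 (adjusted p = 0.00114). *Ntn4*, netrin-4, was lower in the dLG, at 18.6 ± 4.95 against 41.9 ± 8.13 CPM (log2FC -1.17, adjusted p = 0.00626), and *Ephb3* (108 ± 32.6 and 98 ± 29.3 CPM) and *Epha5* (68.4 ± 2.68 and 78.1 ± 8.18 CPM) were not called.

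Of 30 semaphorin, plexin, and neuropilin genes, 7 were higher in the dLG and 5 in the cortex. The coreceptor genes *Nrp1* (43.1, 37.1, 42.9 and 42.3 CPM in the cortex against 77.8, 79.9, 106, 74 and 93.2 CPM in the dLG) and *Nrp2* (3.55, 1.64, 5.19 and 1.95 and 15.1, 17.6, 21.8, 11.1 and 39.8 CPM) were both higher in the dLG. Their log2FC were 1.06 (adjusted p = 5.7e-04) for *Nrp1* and 2.77 (adjusted p = 0.00228) for *Nrp2*. The ligand genes *Sema4d* (log2FC -1.12, adjusted p = 0.0115) and *Sema3d* (log2FC -1.16, adjusted p = 0.0155) were lower in the dLG. *Plxnb2* (96.4 ± 36.5 and 107 ± 25.3 CPM) was not called. The dLG count was 3, 2 and 4 without cortex replicate a, b and d, and the cortical count 3 without any of these or dLG replicate b.

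Cadherins and protocadherins had 12 of 33 tested members higher in the dLG and 2 in the cortex, with a median log2FC of 0.40. The large cadherin gene *Fat3* was at 6.74, 9.43, 8.96 and 4.47 CPM in the cortex, compared with 23.4, 29.5, 42.1, 8.86 and 37.4 CPM in the dLG (log2FC 1.93, SE 0.40, adjusted p = 0.0107), with dLG replicate d inside the cortical range. *Pcdh19* was at 35.2, 33.9, 34.1 and 31.2 and 44.7, 77.1, 85.2, 50.4 and 105 CPM (log2FC 1.11, SE 0.23, adjusted p = 0.0116), without overlap. *Cdh2*, N-cadherin, was higher in the cortex, at 224, 245, 214 and 267 CPM in the cortex against 107, 137, 117, 158 and 56.6 CPM in the dLG (log2FC -1.04, SE 0.23, adjusted p = 0.0155). *Cdh13* (190 ± 8.75 and 166 ± 42 CPM) and *Pcdh10* (161 ± 26 and 225 ± 54.4 CPM) were not called. The dLG count was 7 without cortex replicate a or b, and the cortical count 5 without dLG replicate c.

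Receptors of glutamate and GABA had 11 of 38 tested members higher in the dLG and 7 in the cortex (4, 3 and 3 without cortex replicate a, b and d, and 4 without dLG replicate b). *Grin2c*, the NMDA receptor subunit of astrocytes and cerebellar granule cells, was at 11.6, 13.5, 16.4 and 15.3 CPM in the cortex against 0.286, 0, 0, 0.747 and 0 CPM in the dLG (log2FC -6.07, SE 0.88, adjusted p = 0.00104). It had no count in 3 dLG libraries and less than 1 CPM in the others. *Grin2d*, another subunit of the same receptor, went the opposite way, at 4.67, 7.17, 7 and 9.34 and 16.2, 28.6, 27.5, 15.2 and 28.2 CPM (log2FC 1.72, SE 0.29, adjusted p = 0.0026), as did the kainate receptor gene *Grik3* (log2FC 1.69, adjusted p = 0.00734). The AMPA receptor gene *Gria2* was at 695 ± 80.2 and 452 ± 51.1 CPM (log2FC -0.62, adjusted p = 0.00832), and the metabotropic receptor gene *Grm3* (448 ± 79.4 and 362 ± 86.7 CPM) was not called.

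Among 33 genes of calcium and calmodulin binding, 8 were higher in the dLG and 3 in the cortex (1 without cortex replicate c and 5 without dLG replicate d). Beside *Calb2*, those higher in the dLG included *Pcp4l1* (2.03, 1.15, 1.71 and 2.63 CPM in the cortex, compared with 15.5, 24.6, 30.8, 16.2 and 21.5 CPM in the dLG, log2FC 3.52, adjusted p = 2.5e-05) and *Pcp4* (28.5 ± 5.34 and 64.4 ± 17.9 CPM, log2FC 1.17, adjusted p = 0.00473, 23.7% of exons overlapped), both small proteins that bind calmodulin. The calmodulin gene *Calm2* (566 ± 59.4 and 550 ± 15.7 CPM) was not called.

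Of 20 enzymes that build or edit heparan sulfate, 4 were higher in the cortex and 1 in the dLG (2 without cortex replicate d and 3 without dLG replicate c, d or e). *Sulf2*, which removes sulfate at the cell surface, was at 769, 768, 666 and 867 CPM in the cortex against 386, 412, 443, 520 and 373 CPM in the dLG (log2FC -0.85, SE 0.13, adjusted p = 0.00143). *Glce*, an epimerase, was at 84.1 ± 12.3 and 38 ± 7.45 CPM (log2FC -1.15, adjusted p = 0.00113). The sulfotransferase gene *Hs3st2* was at 6.45, 8.56, 7.3 and 9.68 and 0.429, 0.238, 0, 0.0996 and 0 CPM (log2FC -5.64, adjusted p = 8.4e-04), while its relative *Hs3st1* was higher in the dLG, at 41.1 ± 10.5 against 19.5 ± 2.68 CPM (log2FC 1.07, adjusted p = 0.00617). *Hs6st2* was at 24.8, 24.4, 16.1 and 35.5 CPM in the cortex against 27.3, 66.8, 18.5, 61.1 and 33.7 CPM in the dLG and not called (adjusted p = 0.247).

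In a list of genes of fine astrocyte processes and the cytoskeleton, 4 of 20 were higher in the dLG and 3 in the cortex. *Ezr*, ezrin, which ties membrane to actin in the fine processes of astrocytes, was at 376, 451, 482 and 480 CPM in the cortex, compared with 71.6, 95, 85.2, 101 and 64.6 CPM in the dLG (log2FC -2.42, SE 0.15, adjusted p = 1.4e-06). The adhesion gene *Cntn1* was higher in the dLG, at 581, 580, 503 and 625 against 754, 908, 1058, 877 and 986 CPM (log2FC 0.68, SE 0.13, adjusted p = 0.0052). *Ezr* was the only cortical call left without any single library other than dLG replicate d, and the dLG count was 1 without cortex replicate a or d and 2 without cortex replicate b or dLG replicate b. *Tuba1a*, a tubulin gene, was not called (1296 ± 128 and 1206 ± 217 CPM, 26.2% of exons overlapped).

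Changes of the model moved some of these list counts by more than 1.5 times. With DESeq2, the inhibitory lineage list had 7 genes higher in the dLG and 7 in the cortex, the BMP and TGF-beta list 8 in the dLG, the astrocyte receptor list 3 and the heparan sulfate list 2 in the dLG, the GABA list 2 in the cortex, and the calcium list 5 and the cilia list 6 in the cortex. With the number series of the library labels as a covariate, 1 connexin and channel gene, 2 Notch, 2 receptor, 0 lipid, 2 heparan sulfate, and 6 microglial genes were higher in the dLG, and 5 cadherins and 1 cytoskeletal gene in the cortex.

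Outside the lists stood 4 more of the cortical genes with the lowest p. *Mpped1* was at 66.1, 81.1, 76.3 and 96.4 CPM in the cortex against 2.15, 2, 2.61, 3.43 and 2.5 CPM in the dLG (log2FC -4.97, SE 0.21, adjusted p = 4.6e-08). *St6galnac5* was at 172, 185, 199 and 165 and 18.7, 20.5, 20.5, 14.5 and 20.8 CPM (log2FC -3.25, SE 0.14, adjusted p = 5.9e-08). *Entpd2*, which breaks down extracellular ATP, was at 117 ± 11.5 and 19.5 ± 3 CPM (log2FC -2.58, adjusted p = 7.1e-07, 28.8% of exons overlapped). *Hgf*, a growth factor, was at 18.8, 30.9, 25.5 and 36.4 CPM in the cortex and had at most 2 counts in a dLG library, at least 182-fold less (adjusted p = 7.3e-07).

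Genes of other cell states and types separated the groups less cleanly. Of 10 genes of cycling cells, 4 were higher in the dLG (0 without cortex replicate a or d, 1 without cortex replicate c, and 2 without dLG replicate b or e) and 0 in the cortex (0 also with DESeq2 and 0 at an unadjusted p under 0.05). *Ube2c* was at 76.2 ± 12 and 118 ± 22.4 CPM (adjusted p = 0.0357, 22.8% of exons overlapped, lost without cortex replicate a or d at 0.11 and 0.117). *Mki67* (55.2 ± 9.2 and 79.9 ± 23.4 CPM) and *Top2a* (120 ± 13.7 and 158 ± 24.5 CPM) were not called. Of 12 dissociation response genes, 5 were higher in the dLG, and this count was 8 without cortex replicate a, 1, 3 and 2 without cortex replicate b, c and d, and 3 without dLG replicate a, b or e. *Zfp36* was at 32.3, 6.25, 12.7 and 7.83 CPM in the cortex against 77.9, 44.7, 83.3, 41.4 and 49.2 CPM in the dLG (log2FC 1.99, adjusted p = 0.0165). *Egr1* was at 1398, 358, 386 and 305 and 876, 947, 999, 1055 and 555 CPM and not called (adjusted p = 0.456) except without cortex replicate a (0.00324). Cortex replicate a had the highest cortical level of both genes. The part of dissociation in other differences was not tested.

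Of 8 microglial markers, 3 were higher in the dLG (0 without cortex replicate a or b, 1 without cortex replicate d or dLG replicate a, and 6 without dLG replicate c). *Csf1r*, the receptor of a colony stimulating factor, was at 1.99, 1.35, 5.97 and 3.55 CPM in the cortex, compared with 24.8, 2.67, 16.8, 20.4 and 12.1 CPM in the dLG (adjusted p = 0.0336, 15.1% of exons overlapped, lost without cortex replicate a or b at 0.104 and 0.107). The cilia genes *Foxj1* (2.76, 9.24, 12.8 and 43.3 CPM in the cortex against 2.34, 4.29, 0.285, 3.19 and 3.11 CPM in the dLG, log2FC -2.68, adjusted p = 0.0419) and *Rsph1* (0.581, 7.84, 14.7 and 28.5 and 1.14, 1.53, 0, 1.39 and 1.79 CPM, log2FC -3.46, adjusted p = 0.0413) were higher in the cortex, and neither was called without cortex replicate d (0.216 and 0.171), whereas without cortex replicate a 6 members of that list were. Among 7 pericyte markers tested, *Pdgfrb* alone was called, and the median log2FC of the list was 0.16. The pericyte markers summed to 213 to 362 CPM in the cortex and 178 to 597 CPM in the dLG. *Pdgfrb* was at 24.7, 28.1, 45.7 and 52.4 CPM in the cortex against 2.86, 1.38, 9.5, 1.24 and 1.79 CPM in the dLG (log2FC -3.49, SE 0.56, adjusted p = 0.00217). The fibroblast genes *Col1a2* (log2FC -1.14, adjusted p = 0.0102) and *Islr* (log2FC -0.53, adjusted p = 0.0196) were higher in the cortex. Of 4 endothelial and 3 red blood cell genes tested, edgeR and DESeq2 called 0 in either direction, with 0 and 0 at an unadjusted p under 0.05, and edgeR called 1 endothelial gene without dLG replicate c. Of the choroid plexus markers, *Otx2* alone was higher in the dLG, and *Clic6* (1.04 ± 0.482 and 0.274 ± 0.301 CPM) was not called.

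The dLG was set beside the other thalamic nuclei to see how the same genes stood there. The 5 dLG, 4 VPM, and 4 MGv libraries were fitted together without the cortex, and since the dLG libraries are the same as above, the values stand side by side and were not tested for overlap. Of 17319 genes tested, 1670 (9.64%) differed between dLG and VPM, 1122 (6.48%) higher and 548 (3.16%) lower in the dLG, and 112 (0.647%) between dLG and MGv, 64 (0.37%) higher and 48 (0.277%) lower. The VPM numbers depend on few libraries: without VPM replicate a, c or d or dLG replicate b or e, 288, 253, 331, 586 and 669 genes were higher in the dLG, and 1827 without dLG replicate d. Those lower in the dLG were 125, 104 and 167 without VPM replicate a, c and d, 238, 355 and 317 without dLG replicate b, c and e, 1320 without dLG replicate d, and 871 without MGv replicate b. For the MGv, 38 and 39 were higher without dLG replicate b and MGv replicate b, and 28 and 30 lower without dLG replicate b and MGv replicate c. All MGv libraries lie in the number series of dLG replicates a and b, so that nucleus and series are partly confounded in this contrast.

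*Sp9* was at 0.44 ± 0.311 CPM in the VPM and 2.39 ± 1.35 CPM in the MGv, with log2FC of dLG over these nuclei of 7.05 (adjusted p = 1.0e-05) and 4.61 (adjusted p = 1.0e-04). *Zic4* was at 7.66 ± 1.32 CPM in the VPM and 1.46 ± 0.994 CPM in the MGv (log2FC 2.16, adjusted p = 0.00788, and 4.50, adjusted p = 8.2e-05). *Zic1* (log2FC 1.74, adjusted p = 0.0276, and 3.09, adjusted p = 0.00198) was likewise higher in the dLG than in the VPM and in the MGv. The call of *Zic1* against the VPM was lost without VPM replicate a (0.101). *Nid1* (log2FC 1.47, adjusted p = 0.00806, and 1.76, adjusted p = 0.00338) and *Wnt3* (log2FC 1.13, adjusted p = 0.0128, and 2.34, adjusted p = 8.2e-05) were also higher in the dLG than in either nucleus.

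Other genes were called against 1 of the nuclei only. *Otx2* was above the VPM (43 ± 9.79 CPM, log2FC 0.86, adjusted p = 0.0187) and not called against the MGv (72.3 ± 8 CPM), and *Lhx9* likewise (log2FC 3.67, adjusted p = 0.00159, against the VPM). *Calb2* was at 8.49 ± 1.71 CPM in the VPM, near its cortical level, and at 78.7 ± 35.6 CPM in the MGv (log2FC over the VPM 3.23, adjusted p = 6.5e-05). *Cck* showed the reverse, at 122 ± 68.9 CPM in the VPM and 11.1 ± 9.36 CPM in the MGv (log2FC over the MGv 4.16, adjusted p = 0.00214). *Irx5* was lower in the dLG than in the MGv (108 ± 19.8 CPM, log2FC -0.96, adjusted p = 0.0236) and *Gbx2* as well (16.7 ± 10 CPM, log2FC -3.96, adjusted p = 0.0329), the latter not without dLG replicate b or MGv replicate d (0.125 and 0.156).

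For *C1ql2* (71.9 ± 9.45 CPM in the VPM and 82.4 ± 17.2 CPM in the MGv), *Agt* (799 ± 107 and 922 ± 341 CPM), and *Tcf7l2* (227 ± 27.4 and 433 ± 186 CPM), no difference between the dLG and either nucleus was called, which does not show that they are equal. On the cortical side, *Hapln1* (45.3 ± 5.7 CPM in the VPM, log2FC -1.62, adjusted p = 0.00665), *Dio2* (23.6 ± 5.13 CPM, log2FC -1.83, adjusted p = 0.00671), and *Slco1c1* (277 ± 32 CPM, log2FC -0.65, adjusted p = 0.0322) were lower in the dLG than in the VPM as well. *Slco1c1* was not called without VPM replicate c (0.117), and none of the 3 was called against the MGv. *Slc1a3* was at 1609 ± 205 CPM in the VPM and 1679 ± 226 CPM in the MGv, and *Lhx2* at 3.61 ± 1.1 and 12.6 ± 7.09 CPM, neither of them called. *Gfap* was at 12.3 ± 4.77 CPM in the VPM and 1862 ± 2492 CPM in the MGv, and was called against the VPM (log2FC 5.46, adjusted p = 0.0276, and 0.102 without VPM replicate c).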

How the data were processed

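Each library held RNA of sorted cells, amplified by a SMARTer kit and sequenced as single 50-base reads. The authors trimmed reads with Cutadapt and Trim Galore, aligned them with STAR 2.7.0d to mm10 (GRCm38.p6), and deposited raw counts per gene from featureCounts (Subread 1.6.4, Ensembl 95). FastQC 0.11.7 and SAMtools 1.9 are also named in the submitters' processing notes. Whether counting used strand is not given in the sources used here.

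The 4 cortical and 5 dLG libraries were fitted alone in edgeR 4.0.16 (R 4.3.3), with filterByExpr, TMM, and the robust quasi-likelihood test. No covariates were used, and the threshold was a BH-adjusted p under 0.1. All 26556 genes deposited, each with at least 10 counts over the 17 libraries, entered, and 16397 passed filterByExpr. The fit was tested on simulated data. Positions are from GENCODE M21 (Ensembl 96), on GRCm38. Gene lists and members were chosen with earlier results of these data known. Named genes were the 10 with the lowest p per direction without overlap, the 5 with the largest log2FC from 5 CPM, up to 4 called and 2 uncalled members of each list, and genes the study names. Of these 241 genes, the text describes 183 that were tested and 2 that were not, and some are not reported here. VPM and MGv levels were scaled over all 17 libraries. Alternatives were DESeq2 1.42.0 (also with apeglm 1.24.0), its size factors, other filters, thinning of cortex replicate a, the replicate letter as a block, the number series of the library labels (3 series, meaning not stated), all 17 libraries, and each library left out in turn. Depth was 19050424 to 50366363 counts per library. P-values measure the spread between pools of brains.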

Additional observations from a re-analysis of the deposited data

Results flagged for a closer look

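In 24 of 402 groups of 4 or 5 libraries examined, the highest or lowest library lay far from the rest, by a rule that flags about 1 in 20 groups by chance. The spread of these flags over libraries was not tested.

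Cortex replicate a stood off in total counts (50366363), in the summed markers of cortical glutamatergic neurons (263 CPM, the lowest), and in the level of *Egr1* (1398 CPM), and it was the only cortical library with counts of *Gbx2* (0.27 CPM). Cortex replicate b was low for *Nrp1* (37.1 CPM) and cortex replicate c for *Ctnnb1* (353 CPM). Cortex replicate d was high for *Ntn4* (53.9 CPM) and for the summed markers of oligodendrocyte precursors (8978 CPM).

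DLG replicate c stood off on both principal components (65.7 on PC1 and 52.2 on PC2), was low in the summed markers of ependyma and motile cilia (0.807 CPM), and was the highest dLG library for *Lhx2* (13 CPM), *Kcnk1* (69.7 CPM), *Ntng1* (104 CPM), *Cdh13* (239 CPM), and *Pdgfrb* (9.5 CPM). Of these genes, *Lhx2*, *Kcnk1*, and *Pdgfrb* are lower in the dLG, so that replicate c was nearest to the cortex for them, and *Ntng1* is higher, so that it was farthest.

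DLG replicate a was high in the summed markers of endothelial cells (53.2 CPM) and red blood cells (27.6 CPM) and in *Ramp3* (4.24 CPM). DLG replicate b was high for *Adrb1* (50.8 CPM), *Wnt5a* (83.5 CPM), and *Col1a2* (14.8 CPM), and dLG replicate e for *Nrgn* (5.51 CPM) and *Map2* (404 CPM).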

How the results depend on the processing

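The number of genes called depended on the test and on single libraries, while no gene named in the report was called in the opposite direction under any alternative. Against 1473 genes higher in the dLG and 1047 in the cortex, DESeq2 called 2228 and 1621, an adjusted p under 0.05 left 904 and 692, and the fit of all 17 libraries gave 1843 and 1614. Within the 2 library number series that hold both regions, at 2 against 2 libraries each, 676 and 796 genes were called in that of cortex replicates c and d and dLG replicates a and b, and 110 and 123 in that of cortex a and b and dLG d and e, so that 45.9% and 47.2% of calls were higher in the dLG in place of 58.5%. A test of the region effect between these series called 0 of 16197 genes in edgeR (371 at an unadjusted p under 0.05). With a size of the log2FC over the minimum of the study's stricter criterion, 1472 and 1046 genes were called, and 2211 and 1591 with DESeq2. Leaving out each library in turn gave 697 to 2061 genes higher in the dLG and 607 to 1559 in the cortex, 697 to 2060 and 607 to 1554 with that minimum, and 99 to 189 list members higher in the dLG in place of 154.

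Against the other nuclei, these alternatives were chosen after seeing the data. With the number series as a covariate, 586 and 228 genes were higher and lower than in the VPM and 39 and 25 than in the MGv. Leaving out each library gave 253 to 1827, 104 to 1320, 38 to 73 and 28 to 60. The cause of these changes was not tested.

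Whether the replicate letters pair the libraries is not stated. Deviations of same-lettered libraries correlated at 0.002, -0.017, 0.001 and 0.224, and not every library did so best with its own letter. So few correlations cannot exclude shared brains. Same-lettered libraries also lie in different number series of the library labels. With the letter as a replicate block, 1255 and 1056 genes were called, *Foxj1*, *Rsph1*, and *Smo* were no longer called, and *Glud1*, *Hes1*, *Mki67*, *Pcdh10*, and *Top2a* were. Of 134 genes called among those named, 59 were called under every alternative that gave a value and 122 with each library left out. DESeq2 kept all 134, and the 2 number series alone, in the order above, 119 and 60. *Aldh1l1*, *Aqp4*, *Boc*, and *Smo* were lost with the series as a covariate, *Aldh1l1*, *Aqp4*, *C1ql1*, and *Islr* with all 17 libraries. Genes uncalled in the report and called without 1 library were, beside *Egr1* and *Hes1*, *Tnc* (cortex replicate a or dLG replicate e), *Adora1* (cortex replicate d or dLG replicate a or d), *Ramp3* and *Top2a* (dLG replicate a), *Cdh13*, *Hs6st2*, and *Mki67* (dLG replicate c), and *Cpe*, *Ncan*, *Pcdh10*, and *Ptch1* (dLG replicate d). Fold changes are given as bounds where every library of a group was at or under the floor of 3 counts. Those of *Crym*, *Dlx1*, *Dlx2*, *Grin2c*, *Hs3st2*, and *Irx5* rest on few counts in one group, are limited by depth, and are no bounds.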
